A study of Mus musculus with 8 samples.

Results

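The cadherin superfamily genes were taken by name from the deposited gene table: every cadherin named Cdh and a number, every protocadherin (Pcdh), Fat1 to Fat4 and the Dachsous genes Dchs1 and Dchs2. The rule found 75 lines with 74 different names among 26873 features. For the name carried by 2 lines (Pcdha4), the identifier with more counts was kept. Of the 74 genes, 51 reached 1 CPM (counts scaled to a library total of 1000000) in at least 1 of 8 libraries, 18 others had counts below that level and 5 had none. A further 4 lines carry a clone name although a second annotation column gives them a protocadherin symbol, and these were not counted as members.

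The libraries hold messenger RNA of a line of bone marrow mesenchymal stem cells, labelled wild type and kept in osteogenic differentiation, with 1 library for each of 4 arms on day 3 and on day 7. All arms received medium extracts of polycaprolactone (PCL) scaffolds prepared in DMEM with serum: PCL-O, read as the blank by elimination, PCL-E with the peptide E7, PCL-S with the peptide S7 and PCL-SE with both. The labels name the mouse, but 22050 features carry rat Ensembl gene identifiers and 0 carry mouse ones, so the species was not settled here and no genome position or sequence is given. Since each arm and day has 1 library, S7 was tested by setting the libraries of PCL-S and PCL-SE against those of PCL-O and PCL-E on each day, in 1 fit over all 8 libraries.

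Cadherins are membrane proteins whose extracellular repeats bind calcium and join neighbouring cells. Classical cadherins, of type I and type II, hold on to the actin skeleton through catenins at the inner face of the membrane. Protocadherins lack that catenin link in the classical form; many of them lie in the alpha, beta and gamma gene clusters, where each gene contributes its own variable exon, and the alpha and gamma genes add exons shared by their cluster. Fat and Dachsous are giant cadherins that bind each other and act in planar cell polarity and growth control. In mesenchymal and bone-forming cells, Cdh11 (also called OB-cadherin) and Cdh2 (N-cadherin) are the classical cadherins that are best known.

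Total counts ran from 32950326 to 41754124 per library, so that 3 counts correspond to 0.0718 to 0.0910 CPM. All 6 stromal marker genes that were looked up were present at 1 CPM or more, led by Col1a1, whereas the lists of other cell types were mixed. Of 6 blood cell markers 1 reached 1 CPM, Cd14 with up to 18.9 CPM, while Ptprc reached at most 0.0533 CPM; their summed level was 16.1 to 17.8 CPM with S7 and 6.84 to 7.49 CPM without it on day 3, and at least 18.7 CPM with and at most 9.63 CPM without on day 7. Of 5 endothelial markers 1 reached 1 CPM, Tek with up to 14.1 CPM, while Tie1 and Emcn were at 0. Among epithelial markers Krt8 reached 8.10 CPM and Epcam 0.0533 CPM, and S100b of Schwann and neural cells reached 20.2 CPM and was higher with S7 on both days. Cdh5, the VE-cadherin of endothelium, had no count in any library, and Cdh1, the E-cadherin of epithelia, reached at most 0.927 CPM. Summed stromal marker counts were 31735 to 34145 CPM with S7 and 20413 to 22111 without it on day 3. On day 7 they were 6785 to 7144 with S7 and 16699 to 26286 without. These sums are mostly Col1a1, at 5273 to 5659 CPM with S7 and 15347 to 24758.5 without on day 7. The other 5 markers did not share 1 direction on day 7. Cd44 was higher with S7 (503 to 505 CPM against 225 to 290), and Thy1 (384 to 418 against 420 to 502) and Nt5e were lower. Pdgfrb (498 to 567 against 489 to 821) and Eng overlapped. Of the 6 markers, edgeR called 1 higher and 3 lower on day 7 (adjusted p under 0.05). The part of these marker levels in the results below was not tested. In such bulk libraries, fewer cells of a type and less RNA per cell cannot be told apart.

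Per gene length, Fat1 (ENSRNOG00000030954) was the most abundant member, with a mean of 233 FPKM (fragments scaled to gene length and library size, as deposited) over the 8 libraries. It was followed by Cdh11 (ENSRNOG00000013481) with 106 FPKM, Cdh13 (ENSRNOG00000014371) with 66.2, the gamma cluster gene Pcdhgc3 with 55.4 and Pcdh7 with 26.5. Cdh2 followed at 10.9 FPKM, Pcdh18 at 8.57, Pcdh10 at 8.07 and Fat4 at 6.65. Neighbours in this order, such as Pcdh18 and Pcdh10, are means over arms that differ, and their order was not tested. Fat1 alone held 71.0% of the counts of all 74 genes in PCL-O on day 3 (95% Wilson interval 70.8% to 71.2%) and between 67.2% and 73.8% over the 8 libraries; this interval covers counting error only.

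With S7, most of the family stood lower on day 7 and few members differed on day 3. On day 7, 43 of the 57 members with enough counts to be tested fell and 2 rose, where 26.2% of all 15942 genes tested fell and 24.9% rose (adjusted p under 0.05, edgeR quasi-likelihood test). The median log2 fold change was -1.34 over these 57 genes and -0.03 over all genes tested. Of the 43, 31 were clustered protocadherins, which are not independent of each other. Outside the clusters, 12 of the 22 members of at least 1 CPM fell and 2 rose, with a median of -0.79. On day 3, 8 fell and 2 rose, where 6.87% of all genes fell and 7.1% rose, with a median of -0.29 over the members against 0.00. The filter on low counts kept all 51 members of at least 1 CPM and 6 below it, and it removed 17. Scaling to library totals, without TMM normalisation, moved the median of all genes by 0.22 on day 7 and -0.02 on day 3, and 40 members then fell and 3 rose on day 7, while 3010 of all genes fell and 5642 rose in place of 4172 and 3965.

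**Figure D1:**
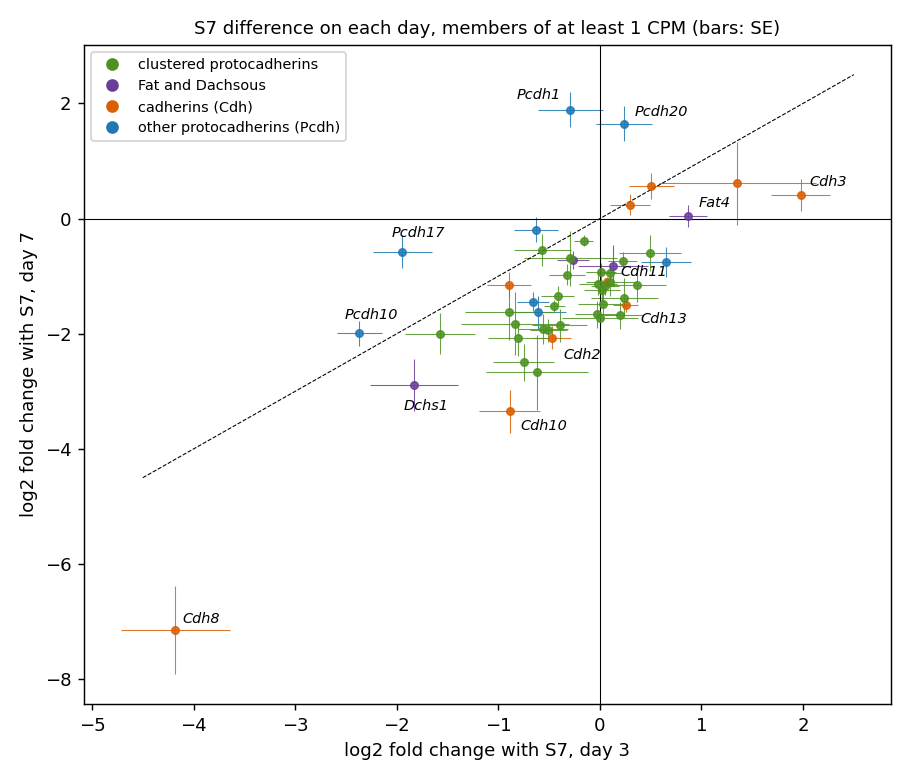
Log2 fold change with S7 on day 3 (horizontal) against day 7 (vertical) for the 51 members of at least 1 CPM; points are fitted values, bars their SE, colours 4 classes of members, and the dashed line marks equal values on both days. Most points lie below the dashed line, all clustered protocadherins lie below 0 on day 7, Cdh8 is lowest on both days, and Pcdh1 and Pcdh20 are above 0 on day 7.

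Levels below are CPM in the order PCL-O, PCL-E, PCL-S and PCL-SE, without TMM, and fold changes are log2 values of the fit, with TMM, given with their standard error (SE). Each fold change compares 2 libraries with S7 and 2 without. These come from different arms, so the p-values measure how far libraries stray from the fit, which may be technical, and not how cultures of 1 arm vary.

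Among the type I classical cadherins, Cdh2 fell on day 7 and Cdh3 rose on day 3. Cdh2 stood at 57.0, 52.3, 39.2 and 38.7 CPM on day 3 and at 104, 63.9, 23.5 and 22.7 CPM on day 7. Both S7 libraries were below both others on each day, and on day 7 the fold change was -2.07 ± 0.19 (adjusted p = 0.000382), against -0.47 ± 0.19 on day 3 (adjusted p = 0.151). Cdh3, the P-cadherin best known from epithelia, stood at 4.26, 5.53, 19.7 and 18.1 CPM on day 3 and at 10.2, 19.7, 25.5 and 19.7 CPM on day 7. It rose with S7 on day 3 (1.98 ± 0.29, adjusted p = 0.00798), and on day 7 PCL-E reached the level of PCL-SE, with a fold change of 0.41 ± 0.28 (adjusted p = 0.253). Of 6 epithelial marker genes 2 reached 1 CPM (Krt8 and Krt18) and Esrp1 was at 0. Their summed level was 2.06 to 2.68 CPM with S7 and 2.65 to 4.11 CPM without it on day 3. On day 7 this sum was 7.76 to 10.1 CPM with S7, against 2.88 CPM for the blank and 10.9 CPM for PCL-E. The blank was thus the lowest day 7 library for this sum and for Cdh3. On day 3 they differed: the S7 libraries were the highest for Cdh3, while the blank was the highest for this sum. Whether epithelial cells add to the level of Cdh3 was not tested. Cdh15, the M-cadherin of muscle precursors, ran from 0.116 CPM in PCL-O on day 3 to 1.40 in PCL-S on day 7 and was not called in any comparison, while of 6 skeletal muscle marker genes 1 reached 1 CPM (Des), and Myf5 and Pax7 were at 0. Cdh4, the R-cadherin, had no count in any library, which allows up to 0.0910 CPM in the shallowest one.

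Of the 13 type II classical cadherins, 6 reached 1 CPM, and Cdh11, Cdh8, Cdh10 and Cdh6 fell on day 7. Cdh11 was nearly level on day 3, at 616, 663, 668 and 663 CPM, and stood at 688, 654, 359 and 374 CPM on day 7. The 4 libraries overlapped on day 3 (0.07 ± 0.09, adjusted p = 0.651), whereas on day 7 both S7 libraries lay below both others (-1.10 ± 0.09, adjusted p = 0.000284). The difference between the days was itself called (interaction -1.17 ± 0.13, adjusted p = 0.00248).

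Cdh8 had the largest fold change of the members tested. It stood at 24.9, 20.2, 1.07 and 1.38 CPM on day 3 and at 17.4, 5.63, 0.182 and 0 CPM on day 7. It fell on both days (-4.18 ± 0.54, adjusted p = 0.00495, and -7.14 ± 0.77, adjusted p = 0.000603); with 0 counts in PCL-SE on day 7, the fitted size there depends on the prior count of the fit. It ran from -6.26 to -11.2 over the fits that left out 1 library, the latter without PCL-S on day 7, and was called in all 8. On day 7, PCL-E lay between the blank and the S7 arms, and the log2 ratio of PCL-E to PCL-O, from 1 library each and with 2 CPM added, was -1.43.

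Cdh10 stood at 7.59, 5.62, 2.88 and 4.02 CPM on day 3 and at 3.94, 2.63, 0.455 and 0.293 CPM on day 7, where it fell by 3.35 ± 0.37 on the log2 scale (adjusted p = 0.000679). Cdh6, also known as K-cadherin, stood at 9.24, 6.22, 3.90 and 4.14 CPM on day 3 and at 6.61, 4.60, 3.22 and 2.64 CPM on day 7. It was lower on both days (-0.90 ± 0.21, adjusted p = 0.0374, and -1.15 ± 0.22, adjusted p = 0.00516). The remaining type II genes, Cdh18 and Cdh24, did not pass the test with S7 on either day with TMM scaling. Cdh18 stood at 14.5, 15.5, 21.4 and 20.5 CPM on day 3 and at 9.47, 18.4, 23.5 and 23.7 CPM on day 7. Cdh24 stood at 4.06, 4.52, 5.61 and 4.82 CPM on day 3 and at 5.89, 7.35, 10.2 and 8.13 CPM on day 7. In both, the S7 libraries were the highest on each day (on day 7, Cdh18 0.57 ± 0.22, adjusted p = 0.0708, and Cdh24 0.24 ± 0.19, adjusted p = 0.317), in a subfamily whose other 4 genes of at least 1 CPM fell on day 7. Cdh18 was called higher on day 7 with total-count scaling (0.79, adjusted p = 0.0267), with the length trend removed (0.83, adjusted p = 0.0314) and with DESeq2 (0.58, adjusted p = 0.0481).

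Cdh13, or T-cadherin, is held in the membrane by a lipid anchor and has no cytoplasmic tail for catenins. It stood at 301, 306, 364 and 353 CPM on day 3 and at 256, 199.6, 95.7 and 91.6 CPM on day 7. The S7 libraries were the highest on day 3 and the lowest on day 7; the day 3 difference was not called (0.26 ± 0.12, adjusted p = 0.221), and it fell on day 7 (-1.50 ± 0.13, adjusted p = 0.000277). The interaction was -1.76 ± 0.17 (adjusted p = 0.00203). Of the other genes outside the classical groups, Cdh16, Cdh17 and Cdh23 stayed under 0.12 CPM in every library and Cdh26 had no count.

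The Fat and Dachsous genes did not move as a block. Dchs1, the ligand of Fat4, stood at 18.9, 8.41, 2.88 and 3.90 CPM on day 3 and at 24.9, 8.81, 3.13 and 1.89 CPM on day 7. It fell with S7 on both days (-1.83 ± 0.44, adjusted p = 0.0371, and -2.88 ± 0.45, adjusted p = 0.0023), and PCL-E lay below PCL-O each time, with single-library log2 ratios of -1.04 and -1.40. Fat4, its receptor, stood at 80.0, 90.2, 159.6 and 148 CPM on day 3 and at 118, 79.1, 115 and 120.3 CPM on day 7. Fat4 rose with S7 on day 3 (0.86 ± 0.19, adjusted p = 0.0273), while on day 7 its libraries overlapped (0.04 ± 0.19, adjusted p = 0.868).

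Fat1 stood at 4328, 4371, 3651 and 3521 CPM on day 3 and at 4676, 3362, 2729 and 2946 CPM on day 7. It was called lower with S7 on day 7 (-0.72 ± 0.16, adjusted p = 0.0098), the S7 libraries lying below both others; without PCL-S on day 7 the call was lost, at -0.56, and the value was -0.42 without PCL-O and -0.995 without PCL-E on day 7, both called. Fat3, of which the libraries overlapped on day 7, stood at 7.62, 6.25, 8.05 and 6.93 CPM on day 3 and at 3.46, 8.41, 3.58 and 4.08 CPM on day 7. Fat2 had 2 libraries with any count, and Dchs2 has no line under that name.

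Gene length moved with the day 7 difference, which bears most on these giant genes. From counts and FPKM, Fat4 has a length of 17111 bases, Fat1 15870, Fat3 14589 and Dchs1 11388, against a median of 2270 over all genes tested. Among all genes tested, 13.2% of the shortest 3986 and 41.3% of the longest 3986 fell with S7 on day 7. No tested member was shorter than 2270 bases. Of the 35 tested members of 2270 to 3534 bases 85.7% fell, against 28.5% of all tested genes of that length. Of the 22 longer members 59.1% fell, against the 41.3%. With a smooth length trend removed from each library, Fat1 had a fold change of -0.02 on day 7 (adjusted p = 0.800), so its call was lost, while Dchs1 kept its call and Fat4 was called higher (0.77, adjusted p = 0.000529). The clustered protocadherins changed little by this: 30 of 34 fell, in place of 31, with a median of -1.48 in place of -1.57.

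**Figure D2:**
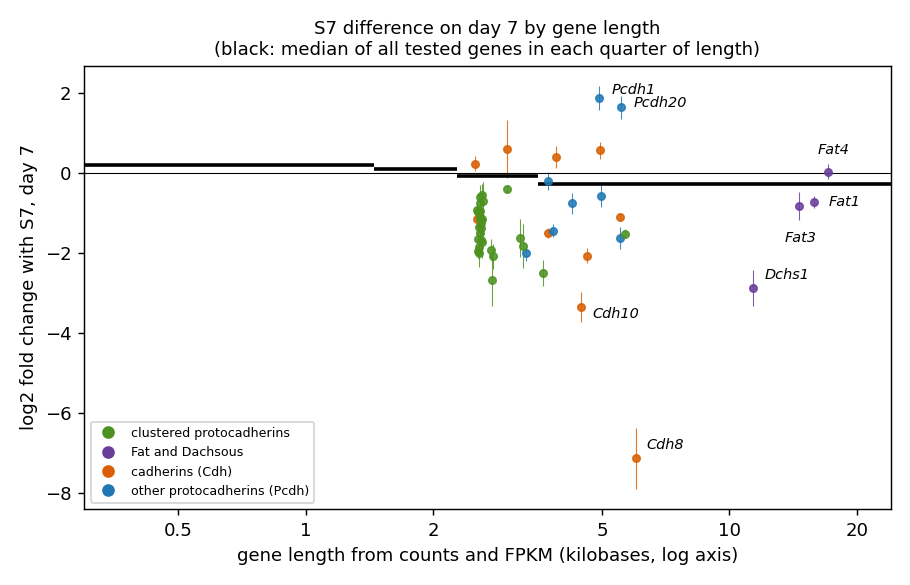
Log2 fold change with S7 on day 7 (vertical, bars SE) against gene length derived from counts and FPKM (horizontal, log axis) for the 51 members of at least 1 CPM; black lines give the median of all tested genes in 4 equal bins of length. Those medians run from 0.20 in the shortest bin to -0.27 in the longest, and most clustered protocadherins, at the left end of the members, lie below the median of their bin.

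Of the delta protocadherins, non-clustered genes best studied in the nervous system, 4 of 7 tested fell on day 7 and Pcdh1 rose. Among all genes tested, 26.2% fell and 24.9% rose on that day. Pcdh10 stood at 54.9, 43.4, 9.54 and 9.16 CPM on day 3 and at 45.6, 28.8, 9.86 and 11.5 CPM on day 7. The S7 libraries were the lowest on both days (-2.37 ± 0.22, adjusted p = 0.00187, and -1.99 ± 0.22, adjusted p = 0.000646), and the interaction of 0.38 ± 0.30 was not called (adjusted p = 0.383).

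Pcdh7 stood at 156, 151, 98.8 and 93.3 CPM on day 3 and at 129.9, 87.8, 46.9 and 45.8 CPM on day 7, and it fell on both days (-0.66 ± 0.16, adjusted p = 0.0353, and -1.44 ± 0.16, adjusted p = 0.000661). Pcdh18 stood at 50.8, 46.1, 31.5 and 31.2 CPM on day 3 and at 103, 56.5, 25.5 and 33.3 CPM on day 7. It fell on day 7 (-1.63 ± 0.28, adjusted p = 0.00334), where the blank was the highest of all libraries. Pcdh19 stood at 11.3, 16.3, 21.4 and 21.8 CPM on day 3 and at 12.2, 9.24, 8.77 and 6.11 CPM on day 7. Its S7 libraries were the highest on day 3 (0.65 ± 0.25, adjusted p = 0.133) and the lowest on day 7 (-0.76 ± 0.25, adjusted p = 0.0439), a day 7 call that was lost under total-count scaling and with the length trend removed; the interaction was -1.41 ± 0.35 (adjusted p = 0.0268).

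Pcdh17 and Pcdh1 had positive interactions of S7 and day. Pcdh17 stood at 8.58, 7.64, 1.59 and 2.82 CPM on day 3 and at 4.49, 7.38, 3.28 and 6.11 CPM on day 7. It fell with S7 on day 3 (-1.94 ± 0.29, adjusted p = 0.00827) and its libraries overlapped on day 7 (-0.57 ± 0.28, adjusted p = 0.129), with an interaction of 1.37 ± 0.40 (adjusted p = 0.0429). Pcdh1 stood at 2.06, 1.44, 1.15 and 1.73 CPM on day 3 and at 1.43, 2.16, 7.65 and 7.76 CPM on day 7. It rose with S7 on day 7 (1.89 ± 0.30, adjusted p = 0.00249), with an interaction of 2.18 ± 0.44 (adjusted p = 0.013). Pcdh9 was not called, at 10.7, 7.78, 5.59 and 6.17 CPM on day 3 and 9.16, 7.26, 7.65 and 9.01 CPM on day 7. The other riser of day 7, Pcdh20, stood at 2.09, 1.93, 2.12 and 2.61 CPM on day 3 and at 0.455, 0.790, 2.12 and 2.43 CPM on day 7 (1.65 ± 0.30, adjusted p = 0.00415). Its S7 libraries differed little between the days (-0.36 ± 0.27, adjusted p = 0.303), and both libraries without S7 were lower on day 7 than on day 3.

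**Figure D3:**
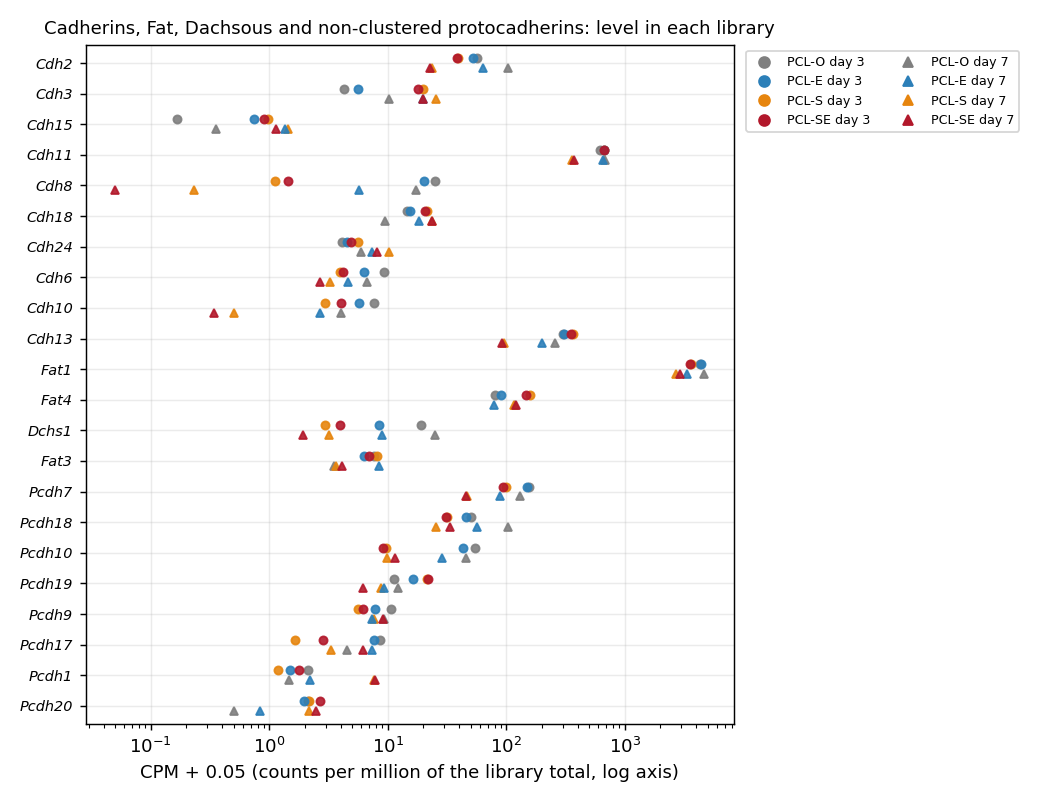
Level of the 22 members of at least 1 CPM outside the clusters in each library, as CPM with 0.05 added on a log axis; circles are day 3, triangles day 7, and colours the 4 arms. The S7 libraries (orange and red) lie close together in most rows and, on day 7, left of the blank for Cdh2, Cdh8, Cdh10, Cdh11, Cdh13 and Pcdh7 and right of it for Pcdh1 and Pcdh20.

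The clustered protocadherins, which give neurons their surface identities, were all on the lower side with S7 on day 7. Of 34 tested, 31 fell, 0 rose and all 34 fitted values were negative, with a median of -1.57. Of all genes tested, 26.2% fell and 24.9% rose on day 7. On day 3, 2 of the 34 fell, 0 rose and 12 fitted values were positive. The count of 2 is near the share of all genes, of which 6.87% fell and 7.1% rose on day 3. The counts by cluster below stand beside the same shares. With total-count scaling 29 of the 34 fell on day 7. Genes of 1 cluster are near-identical in parts, and reads from the shared exons of the alpha and gamma clusters cannot be given to 1 gene, so the level of each gene is uncertain and the genes are not independent of each other.

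All 15 tested genes of the beta cluster, whose genes each consist of a single exon, fell on day 7, with a median of -2.08, and 1 of them (Pcdhb14) fell on day 3, where the median was -0.75. Pcdhb22 stood at 7.04, 7.38, 4.44 and 5.61 CPM on day 3 and at 8.44, 7.66, 2.55 and 2.35 CPM on day 7. Pcdhb19 stood at 6.35, 5.33, 4.49 and 4.14 CPM on day 3 and at 5.80, 5.27, 2.79 and 2.32 CPM on day 7. In both, the S7 libraries were the lowest on each day, and the day 7 changes were -1.94 ± 0.19 (adjusted p = 0.000454) and -1.34 ± 0.16 (adjusted p = 0.000932). Pcdhb11 and Pcdhb7, which stayed under 1 CPM, kept their day 7 call in 0 and 1 of 8 fits that left out 1 library. Of all counts in the 3 clusters, the beta genes held 9.96% in PCL-O and 9.73% in PCL-E on day 7, against 4.39% in PCL-S (95% Wilson interval 3.97% to 4.84%) and 4.11% in PCL-SE (3.73% to 4.53%). On day 3 the shares were 11.3%, 9.77%, 7.11% and 7.59%, again lower in both S7 libraries.

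In the alpha cluster, 2 genes were found. From counts and FPKM, Pcdha12 has a length of 5659 bases and Pcdha4 of 2547. Whether shared exons add to the level of Pcdha12 was not tested. Pcdha12 stood at 23.4, 22.4, 16.6 and 16.6 CPM on day 3 and at 18.4, 17.9, 7.98 and 6.88 CPM on day 7, and it fell on both days (-0.45 ± 0.10, adjusted p = 0.0326, and -1.51 ± 0.11, adjusted p = 0.00018). Pcdha4 stood at 5.68, 4.87, 6.12 and 4.26 CPM on day 3 and at 6.16, 3.86, 1.79 and 1.81 CPM on day 7. Its libraries overlapped on day 3 and separated on day 7 (-1.66 ± 0.23, adjusted p = 0.00156).

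The gamma cluster was the largest in counts, and 14 of its 17 genes fell on day 7 with a median of -1.10, whereas 0 of 17 were called on day 3, with a median of 0.03. From counts and FPKM, Pcdhgc3 has a length of 2985 bases, and the other gamma genes have at most 2617 (Pcdhga9). Whether shared exons add to its level was not tested. Pcdhgc3 stood apart from the other 16 genes. It stood at 155, 149.8, 134 and 136 CPM on day 3 and at 208, 185, 177 and 175 CPM on day 7, and its change on day 7 was the smallest among the called genes of the cluster (-0.38 ± 0.09, adjusted p = 0.0129), a call that was lost with total-count scaling. Its share of all gamma counts was 64.5% in PCL-O and 65.6% in PCL-E on day 7, against 74.7% in PCL-S (95% Wilson interval 73.7% to 75.6%) and 74.7% in PCL-SE (73.8% to 75.6%); on day 3 it was 60.7% and 57.8% against 55.1% and 56.4%, lower in both S7 libraries.

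Pcdhga2 stood at 16.7, 16.9, 16.7 and 17.1 CPM on day 3 and at 15.7, 10.6, 6.83 and 6.05 CPM on day 7. Pcdhga7 stood at 13.3, 13.9, 15.6 and 12.5 CPM on day 3 and at 15.1, 12.3, 7.53 and 6.61 CPM on day 7. On day 3 Pcdhga2 was level across the arms and the libraries of Pcdhga7 overlapped, and on day 7 both genes were lower in both S7 libraries (-1.25 ± 0.19, adjusted p = 0.00196, and -1.18 ± 0.14, adjusted p = 0.000912). The genes Pcdhgb8 (10.0, 11.8, 11.8 and 13.4 CPM on day 3; 14.1, 12.9, 9.17 and 9.89 on day 7) and Pcdhgb5 (10.2, 12.6, 9.39 and 8.63; 11.7, 12.5, 8.29 and 6.16) had fold changes of -0.73 ± 0.14 and -0.97 ± 0.18 on day 7. Pcdhgb4 stood at 9.27, 10.9, 10.8 and 9.31 CPM on day 3 and 9.83, 9.80, 6.43 and 5.65 on day 7. Pcdhga10 stood at 7.85, 8.53, 8.30 and 9.07 CPM on day 3 and 8.56, 9.08, 5.22 and 5.41 on day 7. These 4 genes showed the same separation on day 7, with both S7 libraries below both others.

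Among the gamma genes with lower counts, Pcdhga6 stood at 5.71, 7.26, 6.42 and 6.66 CPM on day 3 and 8.80, 5.94, 3.03 and 3.09 on day 7. Pcdhgb6 stood at 5.42, 5.30, 5.71 and 5.67 CPM on day 3 and 6.25, 4.41, 2.49 and 3.28 on day 7. Pcdhga3 stood at 5.88, 5.68, 5.83 and 5.46 CPM on day 3 and 5.55, 4.41, 2.49 and 2.77 on day 7. All 3 fell on day 7 (-1.49 ± 0.25, -1.10 ± 0.25 and -1.14 ± 0.19). Pcdhga4 stood at 2.93, 4.15, 4.37 and 5.46 CPM on day 3 and 4.49, 2.87, 2.64 and 3.07 on day 7, where its libraries overlapped, and with Pcdhga1 and Pcdhga9 it was among the 3 gamma genes not called on day 7. Pcdhga5, Pcdhga8, Pcdhga11 and Pcdhgb7, all under 5 CPM, fell by 1.16 to 1.72 on the log2 scale.

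**Figure D4:**
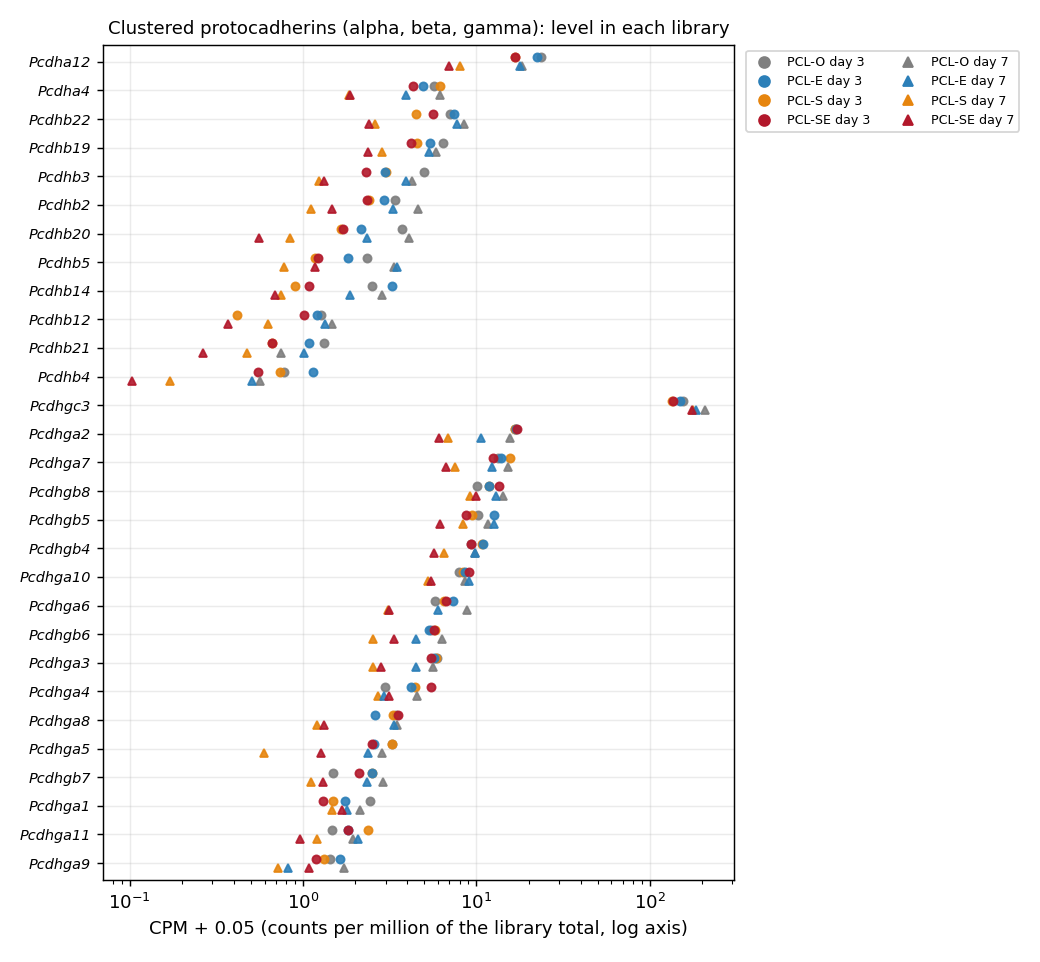
Level of the 29 clustered protocadherins of at least 1 CPM in each library, as CPM with 0.05 added on a log axis; circles are day 3, triangles day 7, and colours the 4 arms. In most rows the orange and red triangles (PCL-S and PCL-SE on day 7) lie left of the other 6 libraries, and Pcdhgc3 lies far right of the other gamma genes.

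Without S7, few members differed between day 3 and day 7: 1 of 57 members fell (Pcdh20, -1.77 ± 0.30, adjusted p = 0.0458) and 0 rose, where 0.935% of all genes tested fell and 0.671% rose. DESeq2 called 4 members here, and 8 were called without PCL-O on day 7 and 5 without PCL-E on day 7. The Pcdh20 call was lost under total-count scaling and without any 1 of 6 libraries, PCL-O and PCL-E on day 7 being the exceptions. With S7, 33 members fell and 1 rose (Pcdh1, 2.13 ± 0.31, adjusted p = 0.00165), where 26.4% of all genes fell and 24.4% rose; with total-count scaling, which moved the median of all genes by 0.30, 27 fell and 4 rose, while 2685 of all genes fell and 6255 rose in place of 4201 and 3889. The steepest falls at 20 CPM or more on day 3 were Cdh13 (-2.24 ± 0.13, adjusted p = 0.000113) and Pcdh19 (-1.85 ± 0.26, adjusted p = 0.00141). Fat1 and Fat4 were among those called (-0.64 ± 0.16 and -0.69 ± 0.19), but with the length trend removed their fold changes were 0.23 and 0.23, in the other direction.

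Whether the S7 difference itself changed between the days was tested as an interaction, which was called lower for 25 members and higher for 3 (Pcdh1, Pcdh17 and Pcdh20), where 15.5% of all genes were called lower and 13.2% higher. Total-count scaling, which moved the median of all genes by 0.24, gave 19 lower and 3 higher members, and 1750 lower and 3721 higher of all genes. By cluster, 11 of 17 gamma genes, 5 of 15 beta genes and both alpha genes were among the 25, and so were Cdh2, Cdh3, Cdh10, Cdh11, Cdh13, Pcdh7 and Pcdh19. For Cdh3 the negative value (-1.56 ± 0.40, adjusted p = 0.028) is a day 3 difference that was larger than that of day 7. The count of 28 depended on single libraries: it was 7 without PCL-O or PCL-SE on day 3, 11 without PCL-S on day 7, 12 without PCL-S on day 3, 17 without PCL-E on day 3 and 18 without PCL-SE on day 7. Cdh2, Cdh11, Cdh13, Pcdha12 and Pcdhga7 were called in all 8 of these fits with 1 library left out.

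The day 3 count of 10 members also rested on single libraries, being 1 without PCL-S on day 3, 3 without PCL-O or PCL-E on day 3, 4 without PCL-SE on day 3, 5 without PCL-S or PCL-SE on day 7, and 16 without PCL-O or PCL-E on day 7. Pcdh10 was called on day 3 in all 8 of these fits and Cdh8 in 7 of 8. The other 8 day 3 calls held in 2 to 6 of the 8 fits, with Fat4 at 0.67 to 1.07, Dchs1 at -2.71 to -1.08 and Cdh3 at 1.77 to 2.18. On day 7, 32 of the 45 called members were called in all 8, and the count ran from 35 to 45. Those called in fewer than 8 were Fat1, Pcdh19, Pcdhgc3, Pcdhgb6, Pcdhgb7, Pcdhga11 and 7 beta genes of at most 1.43 CPM; Pcdh19 held in 3 fits, at -1.04 to -0.48. A fit without an interaction estimates another quantity, 1 S7 difference shared by both days, and called 12 members lower and 0 higher.

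For E7, tested as PCL-E and PCL-SE against PCL-O and PCL-S over both days, no member and no other gene of the 15942 passed edgeR's test (0% of all genes tested higher and 0% lower). An unadjusted p under 0.05 was reached by 5 of 57 members (Pcdhb20, Dchs1, Pcdh17, Pcdha4 and Cdh6) and by 589 of all 15942 genes, and DESeq2 called 0 members. Pairs of single libraries carry no test. Between PCL-E and PCL-O, Dchs1 was past 2-fold on day 3 and Dchs1 and Cdh8 on day 7, where 0.37% and 1.59% of all genes were past 2-fold. Between PCL-SE and PCL-S, 0 members were past 2-fold on day 3 and 0 on day 7, against 0.207% and 0.326% of all genes.

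The catenins and other linkers of classical cadherins had more lower than higher genes on day 7: of 16 tested genes of a list of 17, 9 fell and 2 rose with S7, with a median of -0.51. The alpha catenin gene Ctnna1, which links to actin, stood at 350.1, 356, 275 and 273 CPM (-0.59 ± 0.08, adjusted p = 0.00112), and the vinculin gene Vcl at 1603, 1237, 713 and 739.6 CPM (-1.19 ± 0.14). The beta catenin gene Ctnnb1 was not called (432, 424, 489.98 and 535 CPM; 0.03 ± 0.09, adjusted p = 0.768). Ctnnd2, a delta catenin best known from neurons, rose (1.97, 4.69, 24.9 and 22.6 CPM; 2.62 ± 0.36). On day 3, 1 of the 16 rose (Plekha7) and 1 fell (Ajuba), where 7.1% of all genes tested rose and 6.87% fell. Both counts are near the shares over all genes.

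Of 13 tested Fat and Dachsous pathway partners, 9 fell and 0 rose on day 7 (median -0.46), among them the Hippo pathway cofactor gene Wwtr1 (-0.76 ± 0.08) and the planar polarity gene Vangl2 (-2.04 ± 0.33), while Yap1 was not called (0.06 ± 0.08). Of 9 tested proteases that cleave cadherins, 5 fell and 2 rose, with Adam10, the main sheddase of Cdh2, at 105, 97.5, 65.6 and 70.9 CPM (-0.79 ± 0.09) and Mmp3 higher (1.69 ± 0.27). Among 8 tested repressors of cadherin genes 3 rose and 3 fell on day 7. Snai1 stood at 25.3, 44.3, 79.4 and 83.6 CPM (1.02 ± 0.21, adjusted p = 0.00688), and Snai2 at 55.3, 56.3, 28.6 and 27.6 CPM (-1.21 ± 0.10). Of 11 chromatin factors of the protocadherin clusters 4 fell and 0 rose. Smchd1, which silences clustered protocadherins, stood at 80.9, 71.9, 42.6 and 52.3 CPM (-0.91 ± 0.13), and Ctcf, the looping factor, was not called (0.14 ± 0.09). Nectins had 4 of 7 lower and 0 higher, and of 5 tested desmosomal genes Ppl rose and Dsp fell. These counts, and those of the linkers, stand beside 26.2% lower and 24.9% higher of all genes tested on day 7. By length, 13.2% of the shortest 3986 genes and 41.3% of the longest 3986 fell. The lists were not compared with genes of like length.

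By Pearson's correlation of log2 CPM (0.5 added) over the 8 libraries, the members most like Fat1 were Pcdh7 (0.95), Cdh8 (0.91) and Pcdhga9 (0.90). For Cdh11 they were Pcdhga10 (0.98), Pcdhga8 (0.97) and Pcdhga7 (0.96), and for Cdh13 Pcdhga2 (0.98), Pcdhga3 (0.98) and Pcdhga7 (0.94). The 8 points share 4 arms and the scaling of their libraries, so these values are descriptions.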

How the data were processed

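Messenger RNA was profiled in 8 libraries (4 arms on 2 days, 1 library each). Per the file headers, the authors deposited counts and FPKM values per gene and library. The sources used here do not name an aligner or counting tool; the labels' protocols give n = 3 RNA samples without saying whether they were pooled. FPKM values, scaled by the authors, served to compare genes and to derive gene lengths. Broken annotation text made up 10 lines, which were dropped.

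edgeR 4.0.16 (R 4.3.3) was run on the counts with filterByExpr, TMM scaling and quasi-likelihood F-tests over 15942 genes. The model had a term for each of the 4 combinations of S7 and day and 1 for E7, with 3 residual degrees of freedom and a coefficient of variation of 0.137. The SE is the fold change divided by the root of F. Genes were called at a Benjamini-Hochberg adjusted p under 0.05. The script was tested on simulated data. Members and lists were chosen with earlier results of these data known. Members of at least 5 CPM are given in all libraries, and partner genes are named where called; the uncalled partner genes, the marker genes and the members under 1 CPM that are named were chosen after their values were seen. Alternatives were DESeq2 1.42.0, other scalings, no filter, other terms, each library left out and, added after seeing the data, removal of a length trend.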

Additional observations from a re-analysis of the deposited data

Results flagged for a closer look

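For 28 members the difference with S7 was not the same on day 3 and day 7, by edgeR's quasi-likelihood test of the interaction over 15942 genes. Each value is the log2 fold change with S7 on day 7 minus that on day 3. Outside the clusters, the difference was more negative on day 7 for Cdh13 -1.76, Cdh11 -1.17, Cdh2 -1.60, Cdh10 -2.46, Pcdh19 -1.41, Cdh3 -1.56 and Pcdh7 -0.78. In the clusters it was more negative for Pcdha12 -1.07, Pcdhga7 -1.23, Pcdhga8 -1.88, Pcdhga10 -1.05, Pcdhb22 -1.44, Pcdha4 -1.64, Pcdhga2 -1.27, Pcdhgb8 -0.96, Pcdhgb4 -0.94, Pcdhga6 -1.51, Pcdhga3 -1.12, Pcdhb19 -0.93, Pcdhb20 -1.74, Pcdhb3 -1.36, Pcdhga11 -1.53, Pcdhb2 -1.46, Pcdhgb6 -1.20 and Pcdhgb7 -1.61. It was more positive on day 7 for Pcdh1 2.18, Pcdh20 1.41 and Pcdh17 1.37. Of these 28, 5 were called in each of the 8 fits that left out 1 library, and 18 in each of the 6 other alternatives. Outliers could not be looked for within groups, since a group of 1 day with or without S7 has 2 libraries.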

How the results depend on the processing

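With 1 library for each arm and day, the spread comes from 3 residual degrees of freedom, and each fit with 1 library left out has 2 and assumes that a lone library varies like the others. With 1 library left out, the number of members called ran from 1 to 16 for S7 on day 3 (10 with all), from 35 to 45 for S7 on day 7 (45), from 0 to 8 for the day without S7 (1), from 25 to 36 for the day with S7 (34), from 7 to 33 for the interaction (28) and was 0 for E7. For the day without S7, it was 4 with DESeq2, 2 without the filter on low counts, and 0 with total-count scaling, with an E7 term on each day and with the length trend removed. A fit without an interaction of S7 and day has 1 S7 difference for both days and 1 day difference for both S7 states, so its counts, 12 for S7 and 0 for the day, belong to other quantities than those above. The fold changes of Fat1 and Fat4 between the days with S7 turned to 0.23 each with the length trend removed, an alternative chosen after seeing the data; the cause was not tested. With 3 counts corresponding to 0.0718 CPM or more, depth limits the members under 1 CPM most.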
